A study of Mus musculus with 2 samples.

Results

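Cd44, Cd82, Lgals1, S100a4, S100a6, S100a10, S100a11, Anxa2, Vim and Ahnak are 10 genes often read together in T cells that have met antigen, and their reads were followed here in single splenic CD4 T cells. They are 10 of the 35976 gene rows in the deposited tables and all 10 were found by symbol. The members were selected on expression measured in these same cells, with earlier results known, so the levels, shares and co-occurrence given for its members are descriptions and carry no test.

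The question of the study was how the IL-13 receptor signal contributes to T follicular helper (TFH) cells, which support B cells in making antibody. OTII cells, which carry a transgenic receptor for an ovalbumin peptide, were transferred into mice and sorted from the spleen as propidium iodide-negative, V beta 5.1/5.2-positive CD4+ cells on day 7 after CAS and a second priming, where the labels do not spell out CAS. One group of hosts was C57BL/6 and its cells came from a pool of 2 mice; the other hosts were IL13Ra1f/f, CD11cCre/+ and their cells came from a pool of 3 mice, so that the floxed receptor gene was to be deleted in host cells that express CD11c, mainly dendritic cells, and not in the transferred T cells. Each pool filled 4 plates of 92 cell wells, giving 368 cells from control hosts and 368 from deleted hosts, measured by SmartSeq2, a plate-based method that makes full-length cDNA from each cell. The labels name no marker that separates transferred from host T cells, and any host CD4 T cell with the same V beta chain could pass the gate. The tables held no row for 8 of 8 OTII receptor segments looked for, so the transgenic receptor was not checked here.

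Each group is 1 pooled sample. Its 4 plates split that sample only technically and cells are not replicates, so no p-value, SE or SD over animals can be given, and a difference between plates of one pool and of the other cannot be told apart from a difference between plates. Control plates held 137968663 to 148025125 reads and deleted plates 125197307 to 143937319, with medians of 1592795 and 1499762 reads per cell. A pair of deleted-host wells stood apart: C5 of plate 1 had 71129 reads and A12 of plate 4 had 9905, where the 9 wells without input had 6698 to 12348. These wells counted as positive for 9 and 8 of the 10 genes on 26 member reads each, so counts of genes per cell below are given for the 734 wells with at least 100000 reads unless all 736 are named. CD4 T cell markers were present, with Cd3e at 221 and 212 reads per 1000000 (CPM) in control and deleted hosts and Cd4 at 915 and 783. B cell markers (7 with a row) summed to 5.12 and 6.33 CPM and none reached 5 CPM.

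Naive T cells circulate through lymphoid organs with homing receptors such as CCR7 on their surface; after activation they gain the hyaluronan receptor CD44 and switch on genes for adhesion, cytoskeleton and membrane traffic. S100 proteins are small EF-hand proteins, most of which bind calcium, and several work by docking on annexins; the S100A10 dimer binds annexin A2 at the inner face of the membrane, where the giant scaffold AHNAK joins them. Galectin-1, encoded by Lgals1, is a secreted lectin that binds galactose-containing sugars on surface glycoproteins and can restrain T cells.

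The 4 S100 genes lie in the S100 cluster of chromosome 3 and fell into 2 neighbouring pairs. In GENCODE vM21 on GRCm38, the assembly also called mm10, S100a4 spans chr3:90603771-90606045 and S100a6 chr3:90612882-90624181, 6.84 kb apart, while S100a11 spans chr3:93520488-93526287 and S100a10 chr3:93555080-93564643, 28.8 kb apart; S100a6 and S100a11 are 2.90 Mb apart, and all 4 are on the plus strand. The other genes are Cd44 at chr2:102811141-102901665 (minus), Cd82 at chr2:93419111-93463140 (minus), Vim at chr2:13573927-13582826 (plus), Lgals1 at chr15:78926725-78930465 (plus), Anxa2 at chr9:69453620-69491795 (plus) and Ahnak at chr19:8989284-9076914 (plus). Some counts are uncertain: S100a4 shares its exons with the readthrough gene Gm42674, S100a11 transcripts have near-identical copies in Gm12854 and Gm7665 (at least 95% over at least 150 bases), and Cd44, Cd82 and Anxa2 each overlap a gene on the other strand, where the strand setting of the counting is not given in the sources used here.

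RefSeq promoter sequences of GRCm38.p6 were matched by symbol for 8 of the 10 genes, and none was found for S100a10 and Lgals1. Those of 4 genes are shown because their genes include the neighbours S100a4 and S100a6, which shared positive cells most often relative to their single shares, and both genes whose window holds an AP-1 motif, a letter pattern bound by factors that T cell activation induces. Each runs 5′ to 3′ on the plus strand and stops short of the gene's first annotated base: S100a4 is chr3:90603520-90603769, S100a6 chr3:90612644-90612881, S100a11 chr3:93520246-93520487 and Anxa2 chr9:69453433-69453619. Capitals mark matches on either strand to AP-1 (TGANTCA), the GC box (GGGCGG) and the TATA box (TATAAA), 3 patterns with no overlapping match in these windows.
S100a4: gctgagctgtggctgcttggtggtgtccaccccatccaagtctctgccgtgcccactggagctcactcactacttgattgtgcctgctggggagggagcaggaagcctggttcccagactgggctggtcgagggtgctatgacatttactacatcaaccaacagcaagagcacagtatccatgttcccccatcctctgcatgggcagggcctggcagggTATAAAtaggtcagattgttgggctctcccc
S100a6: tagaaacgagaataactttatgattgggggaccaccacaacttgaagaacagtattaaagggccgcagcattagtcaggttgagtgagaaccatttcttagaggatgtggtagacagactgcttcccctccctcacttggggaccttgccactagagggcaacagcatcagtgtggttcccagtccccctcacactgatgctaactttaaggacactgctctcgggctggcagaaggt
S100a11: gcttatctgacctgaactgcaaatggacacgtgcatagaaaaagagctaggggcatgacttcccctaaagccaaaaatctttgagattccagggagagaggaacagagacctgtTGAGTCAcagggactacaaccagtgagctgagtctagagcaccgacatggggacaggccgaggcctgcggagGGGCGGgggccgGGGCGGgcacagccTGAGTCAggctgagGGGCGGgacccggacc
Anxa2: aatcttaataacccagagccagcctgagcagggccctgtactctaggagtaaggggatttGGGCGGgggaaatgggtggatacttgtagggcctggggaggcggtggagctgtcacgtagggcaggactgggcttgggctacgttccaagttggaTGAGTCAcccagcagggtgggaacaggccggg
Over the full 250 bases before the RefSeq start, S100a11 held 2 AP-1 and 3 GC box matches, Anxa2 held 1 AP-1, 3 GC box and 1 TATA match, and S100a4 held 1 TATA match. S100a6 held none of the 3 patterns. Among 32851 windows of the same length, 6.75% hold AP-1, 32.7% the GC box and 12.4% the TATA box. These matches describe letters only.

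Between the hosts, no member's plates separated: for every one of the 10 genes the plates of the control pool overlapped those of the deleted pool. The plates of 4.68% of the 7207 genes with at least 20 CPM in the higher pool did not overlap, and 9 of the members reached that level. On the log2 scale of (CPM + 1), deleted over control, no member differed 2-fold, where 5.98% of 9764 genes with at least 5 CPM were at least 2-fold higher in deleted hosts and 6.71% at least 2-fold lower. The plain ratio of S100a4, the scarcest member, was 2.08. On the same log2 scale 6 members were above 0 and 4 below, with a median of 0.17 against -0.04 over the 9764 genes. Together the members took 926 CPM of the control pool and 981 CPM of the deleted pool.

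Cd44, the hyaluronan receptor used to mark antigen-experienced T cells, was at 97.5, 52.2, 117 and 122 CPM on control plates 1 to 4. On deleted plates 1 to 4 it was at 107, 80.1, 56.8 and 109 CPM. The lowest plate of each pool, control plate 2 and deleted plate 3, stood well under the rest, and the pools overlapped at 97.7 and 88.1 CPM overall. Leaving out deleted plate 3 brought the log2 ratio from -0.15 to 0.02, and leaving out control plate 2 brought it to -0.34.

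Cd82, a tetraspanin that organises receptors and integrins in the membrane, had the most reads of the members in deleted hosts. It was at 232, 238, 169.9 and 302 CPM on control plates and at 244, 291, 341 and 329.8 CPM on deleted plates. Deleted plates 2 to 4 were spread around the highest control plate, plate 4, and the pools stood at 236 and 303 CPM, a log2 ratio of 0.36 that ran from 0.23 to 0.51 when each plate was left out.

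Lgals1 was at 72.5, 112, 57.7 and 67.5 CPM on control plates and at 59.7, 98.5, 59.1 and 36.8 CPM on deleted plates. Control plate 2 and deleted plate 2 were each the highest of their pool, though plate numbers are not linked between pools, and deleted plate 4 was lowest of all. The pools were at 76.9 and 63.2 CPM, a log2 ratio of -0.28 that ran from -0.57 to -0.06 when each plate was left out.

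S100a10, the annexin A2 partner, was the most evenly spread S100 gene. It was at 295, 314, 296 and 253 CPM on control plates and at 195, 291, 296 and 211 CPM on deleted plates, so that deleted plates 1 and 4 lay below every control plate and the other two among them. The pools were at 289 and 249 CPM, a log2 ratio of -0.21 that ran from -0.31 to -0.12 when each plate was left out. S100a11, which docks on other annexins, was almost level between pools at 45.3 and 44.9 CPM. Its control plates read 38.4, 36.8, 44.4 and 60.7 CPM and its deleted plates 43.9, 54.3, 47.4 and 34.7 CPM. Control plate 4 was the highest of these and deleted plate 4 the lowest. The log2 ratio of -0.01 for S100a11 ran from -0.11 to 0.17 when each plate was left out.

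S100a4 and S100a6 were scarce and uneven. S100a4, known for binding non-muscle myosin, was at 0.43, 7.14, 9.23 and 1.22 CPM on control plates and at 1.81, 18.3, 16.3 and 0.43 CPM on deleted plates. Its level was higher on plates 2 and 3 than on plates 1 and 4 of each pool, though plate numbers are not linked between pools. Its pools were at 4.45 and 9.27 CPM, a log2 ratio of 0.91 that fell as low as 0.41 without deleted plate 2 and reached 1.41 without control plate 3; it was 1.33 once the top cell was dropped from both pools and 1.04 with 0.1 CPM added in place of 1. One cell held 49.4% of all S100a4 reads of the control pool. S100a6, which also binds annexins, was at 21.9, 38.9, 5.45 and 16.9 CPM on control plates and at 41.9, 43.9, 41.2 and 8.53 CPM on deleted plates. Deleted plates 1 to 3 lay above all control plates and deleted plate 4 below all but one; the log2 ratio was 0.67, with 0.37 without control plate 3 and 1.12 without control plate 2.

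Anxa2, the calcium-dependent membrane-binding partner of S100A10, was at 20.4, 59.5, 44.4 and 34.8 CPM on control plates and at 57.2, 71.2, 14.6 and 41.0 CPM on deleted plates. The lowest and the highest plate were both from the deleted pool. Its pools were at 39.5 and 45.6 CPM, and the log2 ratio of 0.20 ran from -0.09 (deleted plate 2 left out) to 0.50 (deleted plate 3 left out). Vim, the intermediate filament protein vimentin, was at 66.9, 129.8, 101 and 93.9 CPM on control plates and at 95.7, 113, 134 and 90.8 CPM on deleted plates, which lay within or just above the control range. Its log2 ratio of 0.15 ran from 0.01 to 0.31 when each plate was left out.

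Ahnak, too, depended on single plates and cells. It was at 5.67, 58.3, 13.3 and 2.68 CPM on control plates and at 22.0, 44.4, 66.8 and 9.80 CPM on deleted plates. Control plate 2, far above the other control plates, lay between the highest deleted plates, 3 and 2. The pools were at 19.5 and 35.7 CPM, and the log2 ratio of 0.84 reached 2.17 when control plate 2 was left out and 0.35 when deleted plate 3 was. A single cell held 33.6% of the Ahnak reads of the deleted pool and the 5 highest cells held 76.1%.

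**Figure D1:**
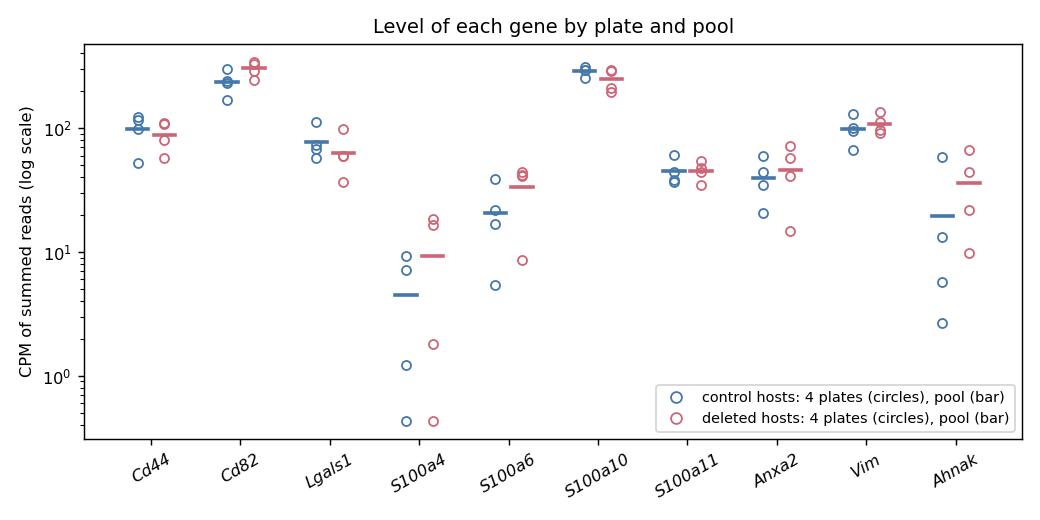
Level of each gene in CPM of summed reads (log axis) on each of 4 plates (circles) and in the whole pool (bars) for control hosts (blue) and deleted hosts (red). The circles of both colours overlap for all 10 genes, and S100a4 and Ahnak spread widest, from 0.43 to 18.3 CPM and from 2.68 to 66.8 CPM.

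Levels were also scaled per kb of exon, a rough allowance for unequal gene length. The length is the union of all annotated exons of a gene. Which transcripts the cells made, and how evenly reads covered them, was not measured. On this scale S100a10 had the highest mean level of both pools at 222 CPM per kb. Cd82, S100a11 and Lgals1 followed at 89.7, 88.3 and 77.6, close enough that their order depends on the pool: Cd82 was above S100a11 in deleted hosts (101 and 87.9) and below it in control hosts (78.5 and 88.6). Vim (21.7), S100a6 (19.7), Cd44 (13.7), S100a4 (11.7) and Anxa2 (11.4) formed a lower tier whose plates overlap. Ahnak, whose transcript is the longest of the 10, was last at 1.38 CPM per kb.

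The same genes were next counted by cell. To count as positive for a gene, a cell needed 10 CPM or more of it, and no less than 5% of the mean CPM of that gene over the plate. S100a10 was the only member found in most cells, with 227 of 368 control-host cells positive (61.7%, exact Clopper-Pearson 95% interval 56.5 to 66.7) and 208 of 368 deleted-host cells (56.5%, 51.3 to 61.7). The intervals cover counting error only, since these are PCR reads without molecular identifiers.

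Lgals1, Cd82 and S100a11 were positive in intermediate numbers of cells: Lgals1 in 113 and 96 cells of the control and deleted pools, Cd82 in 88 and 108, and S100a11 in 93 and 94. Cd44 was positive in 49 and 56 cells and Vim in 41 and 49. Anxa2 (21 and 27 cells), Ahnak (24 and 24), S100a6 (18 and 26) and S100a4 (6 and 12) were each found in few cells. The intervals of the pools overlapped for all 10 genes. Ahnak, whose pooled level was the second most different, had the same number of positive cells in both pools when all wells were counted. The median was 51.5 CPM in control and 124 CPM in deleted positive cells. Over wells with at least 100000 reads, its share was 6.52% in control and 6.01% in deleted hosts.

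**Figure D2:**
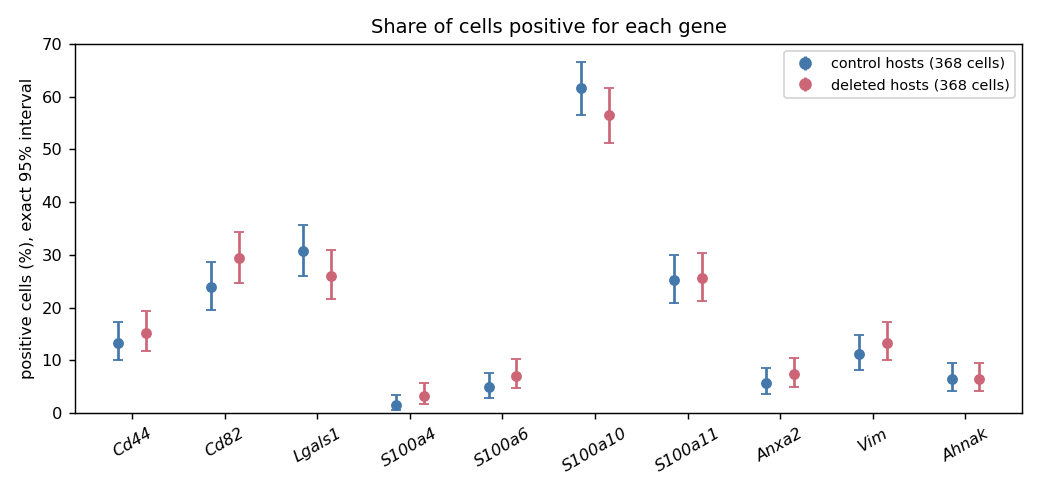
Share of cells positive for each gene (percent, points) with exact 95% intervals (bars, counting error only) in 368 cells from control hosts (blue) and 368 from deleted hosts (red). S100a10 is positive in 61.7% and 56.5% of cells, S100a4 in 1.63% and 3.26%, and the bars of the pools overlap for every gene.

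Most reads came from the cells called positive: 91.4% of S100a4 reads in the control pool at the least and 99.8% of S100a10 reads at the most. In the 9 wells without input, the highest count of any member was 11 reads, for Anxa2, and 10 of the 48 cells positive for Anxa2 had no more than that. The numbers of such cells were 1 to 4 for each of the other genes. When a cell was instead called positive at 5 reads or more, the Anxa2 share rose to 30.2% and 42.4% and the Vim share to 27.4% and 35.9%. The Cd44 share was then 20.4% and 22.0% and the Cd82 share 33.2% and 39.4%, while a limit of 50 CPM put Ahnak at 3.26% and 3.804%. The shares of these 5 genes thus depend on the call.

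Cells differed widely in how many of the 10 genes they held. Over the 734 wells with at least 100000 reads, 139 cells were positive for none and 261 for exactly 1, and 39 cells (5.31%) were positive for 6 or more, a limit set after the data were seen; 26 cells had exactly 5 and 14 exactly 6. The mean over all wells was 1.85 genes per cell in control and 1.90 in deleted hosts, and 1.85 and 1.87 without the pair of shallow wells. Plates ran from 1.74 to 1.91 in control and from 1.64 to 2.12 in deleted hosts. Cells with 6 or more numbered 16 in control hosts (4.35%, 2.51 to 6.96) and 23 in deleted hosts (6.28%, 4.02 to 9.28), or 25 with the shallow wells.

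**Figure D3:**
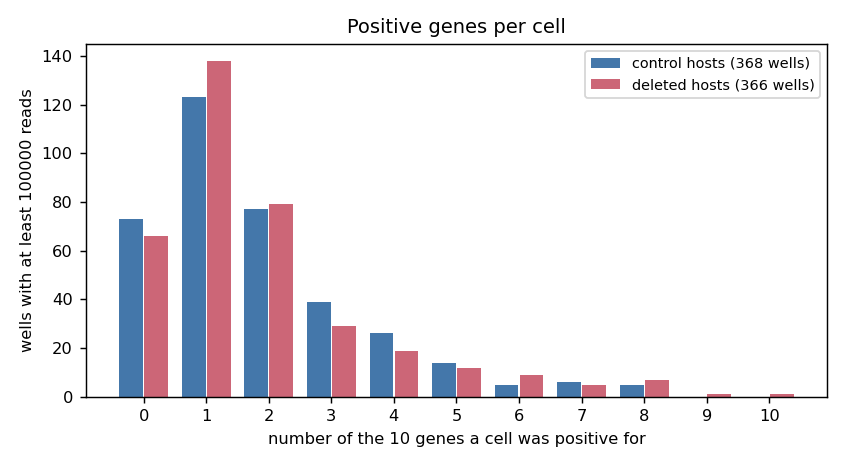
Number of wells (vertical axis) by the number of the 10 genes a cell was positive for (horizontal axis), for control hosts (368 wells, blue) and deleted hosts (366 wells, red) with at least 100000 reads. The bars have nearly the same shape, with 73 and 66 cells at 0, 123 and 138 at 1, and a tail to 8 in control and 10 in deleted hosts.

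The number of members moved with the number of genes a cell showed at all. Cells positive for none had a median of 1409 genes with at least 5 reads, cells positive for 1 had 1505, and cells positive for 6 or more had 2048, at medians of 1433810, 1502378 and 1655145 reads. The part of this difference in the results on co-occurrence was measured only by a partial correlation, given below.

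The scarce members were mostly found with several other members. All 17 S100a4-positive cells and all 43 S100a6-positive cells held at least 1 other member, and only 1 of 46 Ahnak-positive cells held none. S100a4-positive cells held a mean of 6.12 of the 9 other members, S100a6-positive cells 5.02 and Ahnak-positive cells 4.91. Cells negative for these genes held means of 1.73, 1.60 and 1.59. The positive cells also showed more genes, with medians of 2044, 1943 and 2018 against 1550, 1540 and 1539.5. S100a10, which counts among the others for every member but itself, was the only member in 141 of its 433 positive cells. S100a10-positive cells held a mean of 1.64 others, against 0.73 in S100a10-negative cells. Cd44-positive cells held a mean of 2.87 others against 1.53 in Cd44-negative cells.

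For all 45 pairs of members, more cells were positive for both than the product of the shares on each plate gives. This was counted for the members only, so no share over all gene pairs stands beside it. Cells positive for a member also showed more genes, with medians of 1644 (S100a10) to 2044 (S100a4). In negative cells the medians were 1482 (S100a10) to 1550 (S100a4), and the joint counts are not adjusted for this. The 5 smallest ratios of the joint count to the product all involve S100a10, the most common member. Cd44 and S100a10, for example, were both positive in 74 cells where the product gives 60.8. The ratio has a ceiling set by the share of the commoner gene, so pairs with S100a10, positive in most cells, cannot reach a high one. The ratio was largest among the scarce genes, where that ceiling is higher. S100a4 and S100a6, the neighbours on chromosome 3 whose promoters are printed above, were both positive in 12 cells where the product gives 1.20. Of these 12 cells, 3 were from control and 9 from deleted hosts. S100a6 with Ahnak shared 20 cells (product 2.81) and S100a4 with Ahnak 12 (product 1.46), although these pairs lie on different chromosomes. Of the 17 S100a4-positive cells, 70.6% were S100a6-positive, against 4.32% of the other cells.

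Ranked over all cells within plates, the pairs were weakly related. The median Spearman rho of the 45 pairs was 0.09, against 0.006 for all pairs of the 9764 genes, and 20 pairs (44.4%) were at 0.1 or above against 0.929% of all pairs. The highest were S100a10 with S100a11 (0.25; 0.29 in control and 0.21 in deleted hosts), Cd82 with Lgals1 (0.22) and Vim with Ahnak (0.21; 0.21 and 0.22). S100a10 and Anxa2, whose proteins form a complex, had a rho of 0.00, with both positive in 33 cells where the product gives 26.9. Of all 736 cells, 48 were positive for Anxa2 and 30 had no read of it, while wells without input held 3 to 11. Its ranks thus mostly order cells below the positive limit, and this rho cannot show that the genes are unrelated. S100a4, S100a6 and Ahnak, positive in 18, 44 and 48 cells, were likewise ranked mostly on cells below it. The order of pairs depended on the measure: by Pearson's r of log2(CPM + 10), S100a4 with S100a6 was highest at 0.42 (rho 0.09) and S100a10 with Anxa2 was at 0.13. These are descriptions over 736 cells that share plates and depth. The median was 0.08 in control hosts alone, 0.10 in deleted hosts alone and 0.09 with the number of genes detected held constant.

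**Figure D4:**
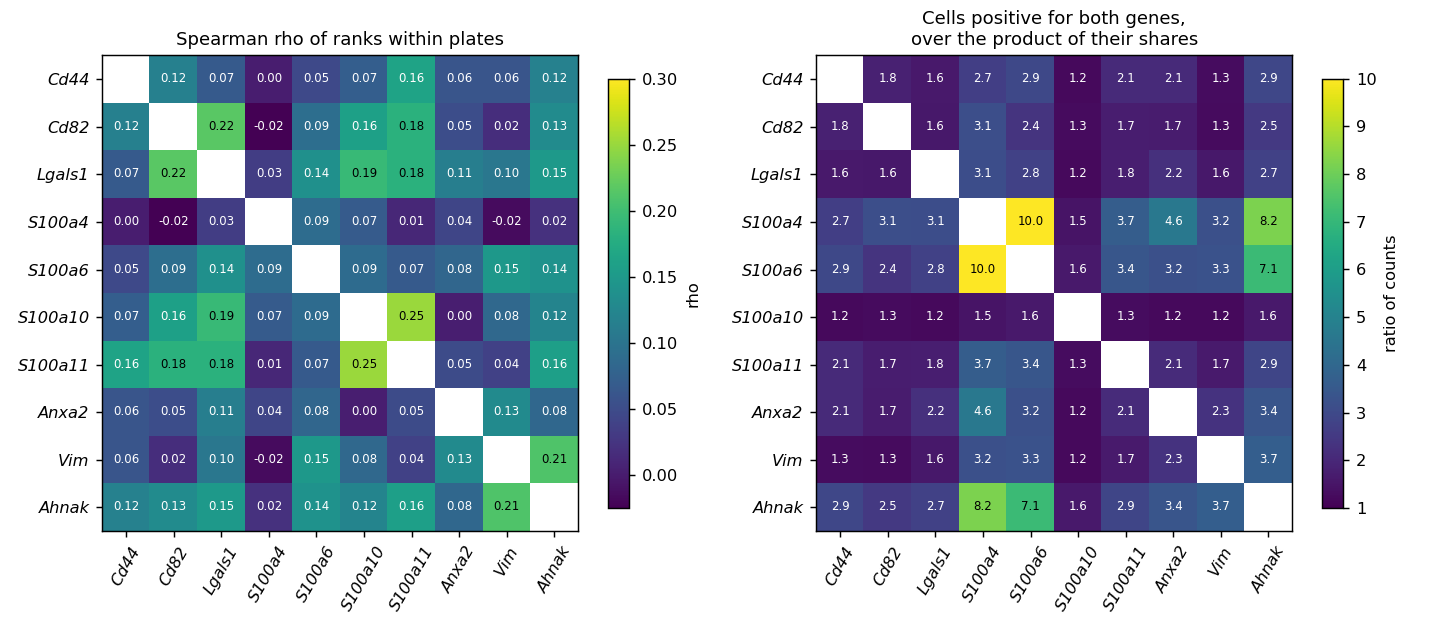
Left, Spearman rho of each pair of genes over 736 cells, ranked within plates; right, cells positive for both genes divided by the count that the product of their shares gives, over 734 wells. The correlation is highest for S100a10 with S100a11 (0.25), while the ratio is highest for S100a4 with S100a6 (10.03) and stays between 1.2 and 1.6 in the row of S100a10. The share of the commoner gene of a pair sets a ceiling on this ratio.

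To see what else varied with these genes, each cell was given a score, the mean over the 10 members of log2(CPM + 10) centred on the plate. The score is a range and not a cell type, and 15 genes with the highest and 8 with the lowest rho to it were taken from 4110 other genes positive in at least 10% of cells, whose median rho was 0.02. Highest were Prr13 (0.31), Gata3 (0.29), a transcription factor of the T cell lineage and of TH2 cells, Tmsb4x (0.29), which encodes the actin-binding peptide thymosin beta 4, and Ifi27l2a (0.26). They were followed by Ly6a (0.25), the activation marker Sca-1, Crip1 (0.23), Thy1 (0.22), Ass1 and Anxa6 (0.21 each) and then Atp2a3, Sod1, S100a13, Rac2, Tagln2 and Ptpn7 at 0.20 to 0.21. Among the lowest were Foxn3 (-0.22), Ptma (-0.21), Klf13 (-0.21), Zfp36l1 (-0.20), Satb1 (-0.19), Il4ra (-0.17) and Smc4 (-0.17). All 23 had the same sign in each pool alone, but they were picked on both pools together, so this is no separate check. The score itself had a rho of 0.40 with the number of genes detected, and with that held constant Prr13 was at 0.20, Gata3 at 0.24 and Satb1 at -0.12.

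Cells were then split on each plate by score into the lowest 184, the middle 368 and the highest 184 cells over all plates; both shallow wells fell among the highest. The lowest and highest cells had medians of 1431 and 1804 genes detected, and of all 9754 genes compared, 12.04% were positive in a share of cells at least 10 percentage points higher among the highest and 0.287% at least 10 points lower. The genes named in the next paragraphs for such a shift were chosen after their values were seen.

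Of 24 measured effector and memory CD4 genes, 11 were at least 10 points higher among the highest-scoring cells and none was 10 points lower. Il2rb, the beta chain shared by the IL-2 and IL-15 receptors, went from 13.04% to 45.1% of cells, and Itga4, an integrin chain for entry into tissue, from 25.5% to 51.6%. Rora went from 1.09% to 19.6% and Bhlhe40 from 1.63% to 22.8%, both transcription factors of effector T cells. Cxcr3, a chemokine receptor of TH1 cells, was positive in 0 of 184 and 23 of 184 cells; the limit from 3 counts of 184 is 1.63%. The lowest-scoring cells were positive for a mean of 3.52 of these genes and the highest-scoring for 6.21. The difference of 2.68 genes was 2.46 in control hosts alone and 2.91 in deleted hosts alone, and ran from 2.17 to 3.65 over single plates.

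The naive and resting T cell genes went the other way, although 75.9% of all genes were seen more often in the highest-scoring cells. Of 17 measured, 6 were at least 10 points lower and 1 was 10 points higher. Satb1, a chromatin organiser, was positive in 73.9% of the lowest-scoring and 54.9% of the highest-scoring cells, and Ccr7, the receptor for lymphoid homing, at 57.1% and 42.9%. Lef1, Foxp1 and Bach2, transcription factors of naive T cells, were also at least 10 points lower. The gene 10 points higher was Il7r, the IL-7 receptor chain also kept by memory cells, at 7.07% and 28.8%. Tcf7 (89.7% and 92.9%) and Ets1 (94.0% and 95.7%) were also slightly higher, and Nsg2 was at 31.0% in both. The mean number of these genes per cell was 8.12 in the lowest-scoring and 7.08 in the highest-scoring cells, a difference that was below 0 on each of the 8 plates (-2.52 to -0.30).

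**Figure D5:**
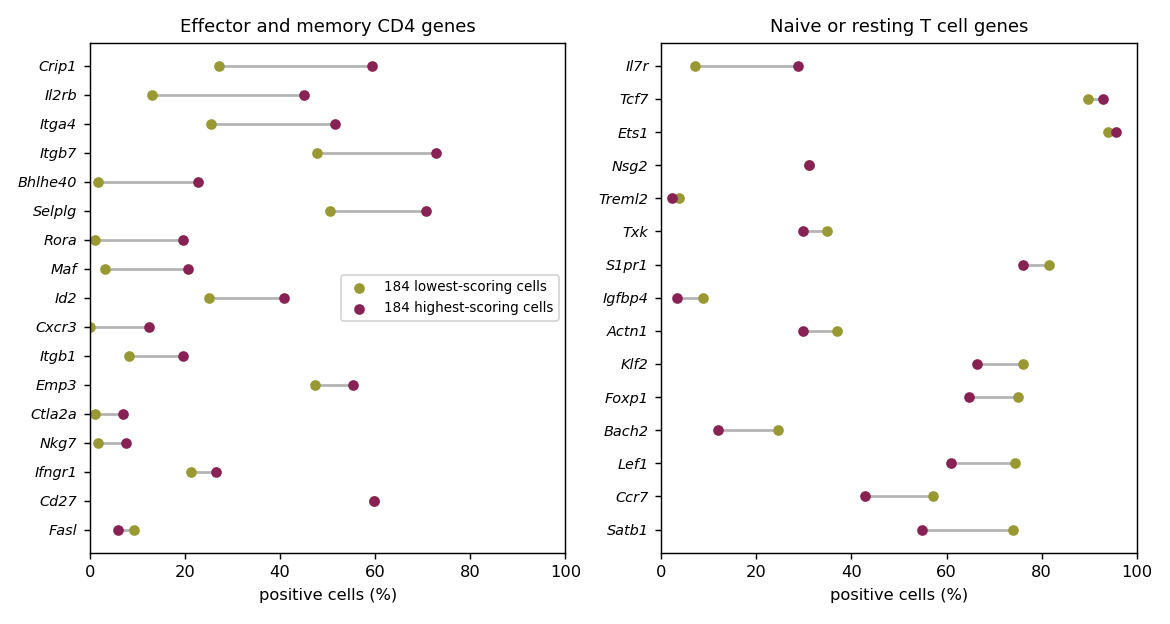
Share of positive cells (percent) among the 184 lowest-scoring (olive) and 184 highest-scoring (purple) cells by the score of the 10 genes, for genes of the effector and memory list (left) and of the naive or resting list (right) at 20 CPM or more. Most effector genes lie to the right in the highest-scoring cells, as with Il2rb from 13.04% to 45.1%, while Satb1 lies to the left, from 73.9% to 54.9%, and Il7r runs the other way.

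TFH markers, the subject of the study, were also mostly seen more often in the highest-scoring cells. This held for 11 of 13, which is not far from the 75.9% of all genes. Of the 13, 6 were at least 10 points higher, a larger share than the 12.04% of all genes. Icos, a costimulatory receptor needed for TFH cells, was positive in 23.9% and 51.6% of cells, Cxcr5, the receptor that guides cells to B cell follicles, in 9.24% and 20.7%, and Tox2 in 1.09% and 16.8%. The 2 lower ones were Bcl6, the defining transcription factor of TFH cells, at 29.9% and 23.9%, and Ascl2 at 3.804% and 2.72%. Of 11 regulatory T cell markers, 4 were at least 10 points higher (Tnfrsf18, Ctla4, Nrp1 and Capg), also a larger share than the 12.04%. Foxp3, the defining factor of regulatory T cells, was positive in only 1 of 184 and 6 of 184 cells. Among 19 recent activation genes, 13 were seen more often in the highest-scoring cells, and 2 were 10 points higher, near the 12.04% of all genes. These were Fos, at 27.2% and 50%, and Tnfrsf4, at 2.72% and 15.2%. Nr4a1, an immediate target of receptor signalling, was the only one at least 10 points lower, at 46.2% and 28.8%. Cd4 was positive in 54.3% and 81.0% of cells while Cd3e was at 92.9% and 91.8%.

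In the 39 cells positive for 6 or more members, the same genes stood further apart from the 400 cells positive for none or 1. These 39 cells also showed more genes, with a median of 2048 against 1409 in cells positive for none and 1505 for 1. No share over all genes was taken for this contrast. Ccr7 was positive in 14 of 39 (35.9%, 21.2 to 52.8) against 231 of 400 (57.8%, 52.7 to 62.6), intervals that just overlap. Icos was positive in 27 of 39 (69.2%) against 81 of 400 (20.3%) and Rora in 14 of 39 (35.9%) against 5 of 400 (1.25%). Foxp3 was positive in 2 of 39 and 5 of 400 and Il2ra in 0 of 39 and 7 of 400. Cd3e was positive in all 39 cells.

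Markers of other blood cells were read beside these groups. In the 39 cells, the myeloid genes Itgam, Csf1r and Tyrobp, the B cell gene Cd79a and the neutrophil gene Ly6g were each positive in 0 of them, where the limit from 3 counts of 39 is 7.69%. Other myeloid and neutrophil markers were called positive in many cells, mostly at low levels. Among the lowest- and highest-scoring cells, H2-Ab1 was positive in 97.8% and 94.6%, H2-Aa in 85.3% and 72.8% and Lyz2 in 71.2% and 63.0%. Cst3 was positive in 54.9% and 57.1% and the neutrophil gene Ngp in 25.5% and 27.7%. The levels in these cells were near the limit of 10 CPM for Lyz2 (14.3 and 12.48 CPM), H2-Aa (16.5 and 13.9 CPM) and Ngp (5.93 and 6.20 CPM). H2-Ab1 was at 34.5 and 29.4 CPM and Cst3 at 66.96 and 99.5 CPM. By comparison, S100a10, positive in 61.7% of control-host cells, was at 289 CPM in that pool. Whether such low counts came from the cells themselves was not tested. Cd68 (1.09% and 4.35%) and Zbtb46 (1.63% in both) were rare. The natural killer gene Klrb1c was positive in 3 of 39 (7.69%, 1.62 to 20.9) against 1 of 400 (0.25%, 0.01 to 1.38). It was positive in 16 of the 184 highest-scoring cells against 0 of the 184 lowest-scoring. The other markers of this list that reached 5 CPM were Prf1 and Eomes. Prf1 was positive in 6 of the highest-scoring and 1 of the lowest-scoring cells. Eomes went the other way, with 6 and 10 cells, at 18.0 and 48.9 CPM. The 16 myeloid and dendritic cell markers summed to 154 CPM in the lowest-scoring and 175 CPM in the highest-scoring cells, the natural killer and innate lymphoid markers to 61.99 and 93.7 CPM, and the CD8 and gamma delta markers to 39.7 and 54.8 CPM. The part of these markers in the score was not tested.

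The other genes of the same families gave few counterparts. Among 14 other S100 genes, S100a13 alone reached 20 CPM in a pool, at 54.6 and 39.8 CPM, and it was positive in 20.7% of the lowest-scoring and 53.8% of the highest-scoring cells. Among the galectins, Lgals3bp, a galectin ligand, was higher on every deleted plate than on every control plate (103 and 152 CPM), while Lgals4, Lgals8 and Lgals9 overlapped. Of the annexins, Anxa6 went from 21.2% to 56.5% of cells and Anxa5 from 13.04% to 25.5% between these sets of cells, with Anxa7 at 5.98% and 10.9%. Of the 11 measured tetraspanins, 5 were at least 10 points higher in the highest-scoring cells, with Tspan13 from 39.1% to 64.7%, Tspan31 from 3.26% to 19.6% and Cd9 from 27.2% to 44.0%. Cd81, another tetraspanin, was at 7.07% and 5.43%.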

How the data were processed

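The authors deposited raw read counts per gene and well for single splenic CD4 T cells (SmartSeq2, oligo(dT)-primed cDNA, 25 PCR cycles and Tn5 libraries per the labels' protocols). Counting used featureCounts 2.0.1 and the genome was mm10, per the submitters' processing notes; not given in the sources used here are the aligner, the annotation and the strand setting. Without molecular identifiers, reads are not molecules.

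Reads were summed over the cell wells of each plate and pool and scaled to reads per 1000000 (CPM) with Python 3.11.15, pandas 2.3.3 and SciPy 1.17.1. Ratios are log2 of (CPM + 1). TMM factors from edgeR 4.0.16 served as an alternative scaling only. With 1 pooled sample per group no test was run, and plates that do not overlap are a rule of order. The members and gene lists were chosen with earlier results of these data known. Genes to be named were all members, up to 4 genes per list with the largest ratio at 20 CPM or more, the related S100, galectin, annexin and tetraspanin genes at that level, and the 15 highest and 8 lowest genes by rho with the score, leaving out predicted genes and pseudogenes; 1 of these is not reported here, and those on which no result for the members turned stand only in counts. Lists covered related families, effector, naive, activation, TFH and regulatory T cell genes and markers of other blood cells. Alternatives were other scalings, pseudocounts, definitions of a positive cell, thinning to 500000 reads, depth limits, correlation measures and leaving out each plate. The scripts were tested on simulated data. The 9 wells without input served as background for the counts, and the other 23 control wells entered no comparison.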

Additional observations from a re-analysis of the deposited data

Results flagged for a closer look

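Within each pool, 44 groups of 4 plates were searched for a plate far from the other 3 (Dixon's 95% limit on the gap over the range), and 6 were found. The rate of 1 in 20 groups behind this limit is for continuous, normal values. Many groups were small counts, where 3 tied plates always pass, and the level and count of a gene are linked. The 6 are therefore not set against a chance rate. Deleted plate 2 had 11 Cd44-positive cells, where the other deleted plates had 15 each. Control plate 1 had 32 Lgals1-positive cells against 27 on each of the others. S100a6 was at 8.53 CPM on deleted plate 4, with the others at 41.2 to 43.9 CPM. For Anxa2, control plate 2 had 9 positive cells against 4 on each other control plate, and deleted plate 4 had 6 against 7. The median rho between members was 0.13 on deleted plate 2, above the 0.09 to 0.10 of the other deleted plates. Several of these gaps are between plates with tied counts.

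The control wells named mBM10 and mBM100, which the labels do not explain, entered no comparison, and in them the median reads of all 10 genes were above the highest count of the 9 wells without input; single wells were above it in 17 (S100a4) to 22 of 23. Their median reads over 23 wells were 259 for Cd44, 216 for Cd82, 283 for Lgals1, 12 for S100a4, 151 for S100a6, 124 for S100a10, 322 for S100a11, 559 for Anxa2, 609 for Vim and 49 for Ahnak, against maxima of 1 to 11 reads without input. Per pooled read, Anxa2 stood at 421 CPM and Vim at 396 CPM in these wells.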

How the results depend on the processing

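The median log2 ratio of the 10 genes was 0.15 to 0.20 under other scalings and pseudocounts, and -0.002 (without control plate 1) to 0.34 (without control plate 2) when each plate was left out. No gene's plates separated under any scaling tried. The difference in the mean number of positive genes per cell (0.05) was 0.23 when 5 reads made a cell positive (2.53 and 2.76), below 0 after thinning (-0.003) and when counts had to exceed the wells without input (-0.005), and -0.02 to 0.14 without single plates. The median rho was 0.20 as Pearson's r of log2(CPM + 10) and 0.08 to 0.10 without single plates. The difference of 2.68 effector genes was 2.18 with 5 reads and 1.92 with the number of genes detected removed from the score; it was 2.55 to 2.76 without single plates, where the naive difference of -1.04 was -1.15 to -0.83. The cause of these shifts was not tested. No paired analysis was possible because each group is 1 pooled sample and plates carry no number shared between pools. S100a4 had no read in 389 of 736 cells, where a low level and none cannot be told apart at this depth.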
